A study of Mus musculus with 8 samples.

Results

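Lysosomes break down proteins, lipids and sugars with acid hydrolases, and autophagy delivers parts of the cell's own cytoplasm to them. The genes described here are 41 named genes of both systems: cathepsins, glycosidases, enzymes and cofactors of lipid and protein breakdown, membrane proteins, subunits of the proton pump, autophagy factors and the regulator Tfeb. Each gene was represented by the probe with the highest mean over the groups among the probes annotated to its symbol. A probe was annotated for 39 of the 41 genes, out of 16593 genes with a probe on the array. Npc1 and Cd68 were not analysed here. Of these 39 genes, 33 passed the detection filter (a detection p-value under 0.01 on at least 2 of 8 arrays), as did 7500 genes of the whole array.

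C57BL6/NCrl mice, with no genetic change named, gave the naive CD4+ T cells, which were CD62L+, CD44-, CD25- and DX5- and came from spleen and from inguinal, axillary and brachial nodes. All groups were stimulated with plate-bound anti-CD3e at 10 µg/ml and soluble anti-CD28 at 1 µg/ml. They differed in a further plate-bound protein at 5 µg/ml: Delta4-Ig, in which Delta-like 4, a ligand of Notch receptors, is joined to an immunoglobulin, or control Ig. RNA was hybridised to Illumina mouse BeadChips, which measure each transcript by the brightness of a probe. Day 3 with Delta4-Ig and day 3 with control Ig each held 2 mice, and mouse 1 had 2 arrays per stimulus that were averaged. Day 1 with Delta4-Ig and day 1 with control Ig each held 1 sample, from mouse 1, so nothing within day 1 has a replicate.

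In T cells, naive cells that are activated enlarge and rebuild their metabolism, and lysosomes and autophagy supply amino acids and lipids and clear damaged organelles as this happens. TFEB and its relatives are transcription factors that bind a short palindromic E-box in the promoters of many lysosomal genes, as was worked out mainly in human cells. The lysosomal surface is also where the kinase complex mTORC1 reads the amino acid supply.

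The labelled cell type was checked first. All 10 T cell markers with a probe (among them Cd3e, Cd4 and Cd28) were detected on all 8 arrays. Macrophages hold abundant lysosomes, and none of the 14 macrophage and monocyte markers with a probe, Lyz2, Cd14 and C1qa among them, was detected on any array. Their summed log2 level, all of it background signal, was 8.76 to 8.81 with Delta4-Ig and 8.79 to 8.82 with control Ig at day 3, and 8.78 in both day 1 samples. No marker of B cells (7 with a probe) or granulocytes (6 with a probe) passed the filter. Of 8 markers of dendritic cells, 4 passed (Batf3, Bst2, Siglech and Zbtb46), while Itgax, Flt3, Xcr1 and Clec9a stayed at background. The list summed to a log2 level of 10.50 and 10.56 (Delta4-Ig) and 9.95 and 10.96 (control Ig) at day 3, against 8.86 (Delta4-Ig) and 9.08 (control Ig) at day 1. Batf3, which activated T cells can also express, and Zbtb46, detected on 3 of 8 arrays, rose over time in limma's fit with the mouse as a block. Of 6 markers of CD8 T and NK cells, 3 passed (Cd8b1, Klrk1 and Nkg7), and Cd8a, Ncr1 and Klrb1c were not detected. That list summed to 12.96 and 13.84 (Delta4-Ig) and 12.71 and 12.45 (control Ig) at day 3, against 10.72 (Delta4-Ig) and 10.01 (control Ig) at day 1, and Nkg7, a protein of cytotoxic granules, rose in the same fit. These sums moved with time, and their part in the time results was not tested.

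Many lysosomal promoters carry the E-box, and the promoters of the genes were searched for it. RefSeq's table for the build GRCm38.p6 gave a promoter, 250 bases before to 50 bases after the start, for 35 of the 41 genes. The 7-letter motif TCACGTG, searched on both strands and containing the E-box CACGTG, stood in 9 of the 35 (25.7%), against 4.29% of 27025 genes with a promoter in the table. The longer palindrome TCACGTGA stood in 6 (17.1%, against 1.12%). The core CACGTG stood in 10 (28.6%, against 8.09%). These counts nest, since each shorter motif lies within the longer ones. The sites of detected genes are given here 5′ to 3′ on the strand of the gene with the matched motif in capitals, because these genes recur in the results. Where a promoter held several sites, 1 is shown.
Gaa, chr11:119267812-119267838, plus strand: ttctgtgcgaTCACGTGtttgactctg
Glb1, chr9:114401019-114401045, plus strand: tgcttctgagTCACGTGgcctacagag
Atp6v0d1, chr8:105566051-105566078, minus strand: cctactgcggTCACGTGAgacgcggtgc
Atp6v1a, chr16:44139374-44139401, minus strand: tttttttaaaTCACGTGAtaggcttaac
Cln3, chr7:126583341-126583368, minus strand: acgggtactgTCACGTGAcccccaacct
Mcoln1, chr8:3500463-3500490, plus strand: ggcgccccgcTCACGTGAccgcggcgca
Ctsd, chr7:142387909-142387936, minus strand: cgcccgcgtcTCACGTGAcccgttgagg

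Lamp1, a main glycoprotein of the lysosomal membrane, held 4 copies of CACGTG in the 250 bases before its start. The stretch is shown with the 4 copies in capitals.
Lamp1, chr8:13158911-13159160, plus strand: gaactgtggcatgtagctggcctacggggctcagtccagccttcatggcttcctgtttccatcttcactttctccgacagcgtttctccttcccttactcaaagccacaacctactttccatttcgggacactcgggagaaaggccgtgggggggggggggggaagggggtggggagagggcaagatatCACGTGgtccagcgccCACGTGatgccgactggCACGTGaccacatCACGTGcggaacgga

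At day 3, no lysosome or autophagy gene passed the test between Delta4-Ig and control Ig, but most of the measured levels were higher with Delta4-Ig. The lysosomal hydrolase Gaa, the cathepsin Ctsb, the membrane protein Lamp2, the pump subunit Atp6v0d1 and the autophagy adaptor Sqstm1 averaged 1.76-fold, 1.64-fold, 1.60-fold, 1.61-fold and 1.54-fold higher with Delta4-Ig, in that order. The log2 difference of the hydrolase Hexa was 0.70. The largest of all, -0.86 for the hydrolase Gusb, was downward. The median log2 difference of the 33 genes was 0.28, with 24 above 0 (72.7%) and 9 below. The median of all 7500 genes was -0.05, with 44.5% above 0. Marker lists also differed between the stimuli at day 3: the median difference was 0.29 over the 10 T cell markers (6 higher and 1 lower with Delta4-Ig in both mice), 0.44 over the 3 markers of CD8 T and NK cells past the filter and -0.77 over the 4 of dendritic cells. The T cell markers summed to a log2 level of 15.59 and 16.29 (Delta4-Ig) and 15.53 and 15.67 (control Ig), and the part of these lists in the day 3 differences was not tested. In limma, 0 of 33 were called at an adjusted p under 0.05 without a term for the mouse, where 0.0% of all genes were called in either direction. With the mouse as a block, again 0 of 33 were called, against 0.44% of all genes called higher and 0.333% called lower. The smallest adjusted p in limma was 0.9999 without the block and 0.45, for Gaa, with it. At an unadjusted p under 0.05 in limma, 0 of 33 were past without the block (3.17% of all genes) and 1 of 33, Gaa, with it (10.4% of all genes). The SE of a difference ran from 0.34 to 0.85 without the block and from 0.31 to 0.44 with it. In RNA from whole cultures, fewer cells of a type and less RNA per cell cannot be told apart.

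Both mice gave the same direction in 19 of the 33 genes. It was higher with Delta4-Ig in 15 (45.5%, against 26.4% of all genes) and lower in 4 (12.1%, against 32.4%). In 11 genes (33.3%) both Delta4-Ig samples lay above both control Ig samples, against 12.6% of all genes. In 0 genes did both lie below, against 12.9%. The 11 were Atp6v0d1, Atp6v1h, Ctsb, Gaa, Glb1, Hexa, Lamp1, Lamp2, Laptm5, Mcoln1 and Sqstm1, with mean log2 differences of 0.26 to 0.82. By single arrays, without averaging those of mouse 1, Lamp1, Laptm5 and Mcoln1 did overlap. In the other 14 genes the mice gave opposite signs, as in 41.1% of all genes. The median difference was 0.08 in mouse 1, where that of all genes was -0.02, and 0.38 in mouse 2, where that of all genes was -0.05. A difference of at least 2-fold was seen in 1 gene in mouse 1 (7.21% of all genes) and in 7 genes in mouse 2 (21.2%, against 18.4% of all genes). Across the 33 genes the effects in mouse 1 and mouse 2 correlated at r = 0.135, against 0.371 across all 7500, a description over genes that share the same arrays.

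**Figure D1:**
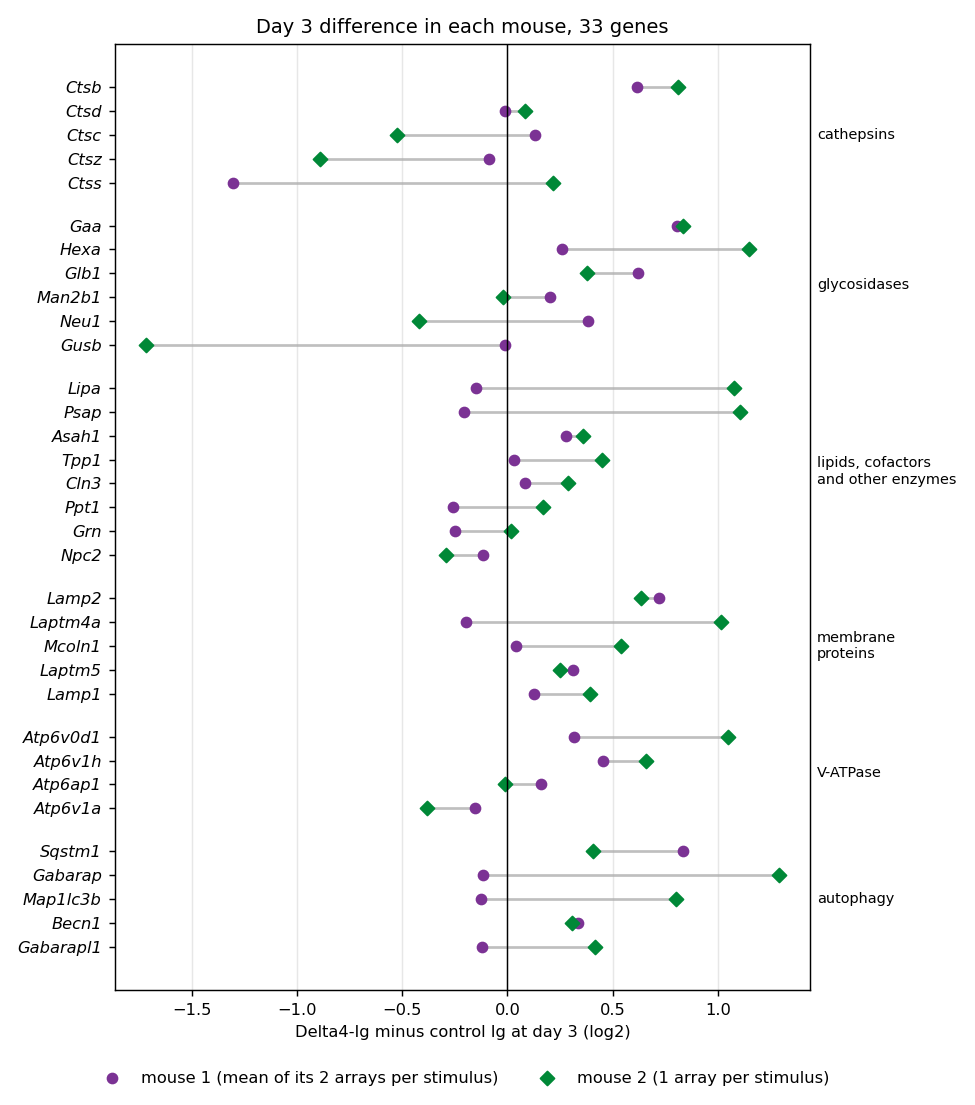
Difference between Delta4-Ig and control Ig at day 3 (log2, x axis) for each of the 33 genes past the filter, grouped by role, with a circle for mouse 1 and a diamond for mouse 2. In 15 genes both points lie right of 0 and in 4 both lie left of it, and the longest line, that of Gusb, runs from -0.01 in mouse 1 to -1.72 in mouse 2.

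Among the cathepsins, proteases of the lysosome, Ctsb stood apart from the other 4 past the filter. Ctsb, a cysteine protease, had log2 levels of 13.64 and 13.77 with Delta4-Ig and 13.02 and 12.95 with control Ig in mouse 1 and mouse 2. Both Delta4-Ig samples were above both controls, and the difference of 0.71 ± 0.34 (SE, 1.64-fold) was not past the test (limma adjusted p 0.9999, or 0.528 with the block). Ctsz, a carboxypeptidase, had 9.41 and 9.54 with Delta4-Ig and 9.50 and 10.44 with control Ig. Its difference of -0.49 ± 0.45 (SE) came mostly from the high control sample of mouse 2, and the groups overlapped. Ctsd, an aspartic protease, had 6.55 and 6.10 with Delta4-Ig and 6.56 and 6.01 with control Ig, close to background. Ctss, a protease known for its role in antigen presentation, fell outside the naming rule and was picked after its values were seen. Its difference was -1.30 in mouse 1 and 0.22 in mouse 2. Ctsc, which activates serine proteases of cytotoxic granules, had differences of 0.13 in mouse 1 and -0.52 in mouse 2. Ctsa, Ctsh and Ctsl were detected on 0 of 8 arrays.

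The glycosidases, which remove sugars, held both the largest differences upward and the largest downward. Gaa, which breaks down glycogen and carries the E-box shown above, had log2 levels of 9.50 and 9.10 with Delta4-Ig and 8.69 and 8.26 with control Ig. The difference was nearly the same in both animals, 0.81 in mouse 1 and 0.83 in mouse 2 (mean 0.82 ± 0.39 SE, 1.76-fold). Hexa, a subunit of beta-hexosaminidase, had 8.09 and 8.93 with Delta4-Ig and 7.83 and 7.79 with control Ig, a mean difference of 0.70. The groups did not overlap, and the sample of mouse 2 with Delta4-Ig was the high one. Glb1, the beta-galactosidase, had 10.58 and 10.69 with Delta4-Ig and 9.96 and 10.31 with control Ig, again without overlap, and a mean difference of 0.50. Gusb, the beta-glucuronidase, had 11.73 and 9.33 with Delta4-Ig and 11.74 and 11.04 with control Ig. The sample of mouse 2 with Delta4-Ig was the lowest, mouse 2 was lower than mouse 1 under both stimuli, and the difference of -0.86 ± 0.85 (SE) became 0.34 without that sample. Man2b1 and Neu1, a mannosidase and a sialidase, differed by 0.09 and -0.02.

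Of the genes for lipid and protein breakdown and their cofactors, 8 passed the filter, and their mean differences lay between -0.20 and 0.46. Asah1, the acid ceramidase, had log2 levels of 10.79 and 11.29 with Delta4-Ig and 10.52 and 10.93 with control Ig. It was higher with Delta4-Ig in each mouse, by 0.28 and 0.36, yet the groups overlapped. Psap, the precursor of the saposins that help hydrolases reach their lipids, and Lipa, the acid lipase, were picked after their values were seen. Psap differed by -0.20 in mouse 1 and by 1.11 in mouse 2, and Lipa by -0.15 and 1.08. Npc2, which carries cholesterol out of the lysosome, was lower with Delta4-Ig in both mice, with 11.53 and 12.45 against 11.64 and 12.74 with control Ig. Tpp1, a peptidase, and Cln3, a membrane protein whose loss causes a storage disease, had mean differences of 0.24 and 0.18 and were higher in both mice. Ppt1, a thioesterase, differed by -0.04 and Grn, the progranulin gene, by -0.12.

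All 5 membrane proteins past the filter had a mean difference above 0, from 0.26 to 0.68, against 44.5% of all genes above 0. Lamp1 had log2 levels of 11.23 and 11.20 with Delta4-Ig and 11.10 and 10.81 with control Ig, a small difference (0.26 ± 0.35 SE) without overlap of the samples. The second array of mouse 1 read 11.10 with Delta4-Ig and 11.18 with control Ig. Lamp2, which is needed for lysosomes to fuse with autophagosomes, had 11.87 and 12.16 with Delta4-Ig and 11.15 and 11.53 with control Ig. Its difference of 0.68 ± 0.37 (SE) was 0.72 in mouse 1 and 0.63 in mouse 2. Laptm5, a membrane protein of blood cells that lowers T cell receptor levels in mice, had 14.74 and 14.91 with Delta4-Ig and 14.43 and 14.65 with control Ig, a difference of 0.28. Mcoln1, the lysosomal calcium channel, was detected on 1 of 3 Delta4-Ig arrays and 0 of 3 control Ig arrays at day 3. The array was that of mouse 2, with a log2 level of 6.42, and the other day 3 levels of Mcoln1 lie at background. Laptm4a, picked after its values were seen, differed by -0.19 in mouse 1 and 1.02 in mouse 2. Cd63, a tetraspanin, was detected on 1 of 8 arrays, that of mouse 2 with Delta4-Ig at day 3.

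The V-ATPase pumps protons into the lysosome, and 2 of its 4 genes here were higher with Delta4-Ig without overlap between the stimuli. Over all genes, 12.6% were higher and 12.9% lower without overlap. Atp6v0d1, a subunit of the membrane part, had log2 levels of 10.80 and 11.49 with Delta4-Ig and 10.49 and 10.44 with control Ig. Its difference of 0.68 ± 0.40 (SE) was larger in mouse 2 (1.05) than in mouse 1 (0.32). Atp6v1h, of the cytosolic part, had 11.49 and 11.61 with Delta4-Ig and 11.04 and 10.96 with control Ig, a difference of 0.55. Atp6v1a, which carries the site where ATP is split, ran the other way, with 9.58 and 9.82 with Delta4-Ig and 9.73 and 10.20 with control Ig. Atp6ap1, an accessory protein, differed by 0.08.

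All 5 autophagy genes past the filter had a mean difference above 0, from 0.15 to 0.62, against 44.5% of all genes above 0. In Sqstm1 and Becn1 both mice gave that direction, while in mouse 1 the other 3 were below 0. Sqstm1, the receptor p62 that binds ubiquitinated cargo, had log2 levels of 10.81 and 10.30 with Delta4-Ig and 9.98 and 9.90 with control Ig, without overlap. Its difference of 0.62 ± 0.38 (SE) was 0.83 in mouse 1 and 0.41 in mouse 2. Map1lc3b, which is attached to the autophagosome membrane, had 8.29 and 8.83 with Delta4-Ig and 8.42 and 8.03 with control Ig, and only mouse 2 was higher with Delta4-Ig. Gabarap, of the same family and picked after its values were seen, differed by -0.12 in mouse 1 and 1.29 in mouse 2. Becn1, a subunit of the lipid kinase that starts autophagosomes, differed by 0.32, and Gabarapl1 by 0.15. Gabarapl2 and Tfeb were detected on 0 of 8 arrays, so no level can be given for the regulator itself.

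**Figure D2:**
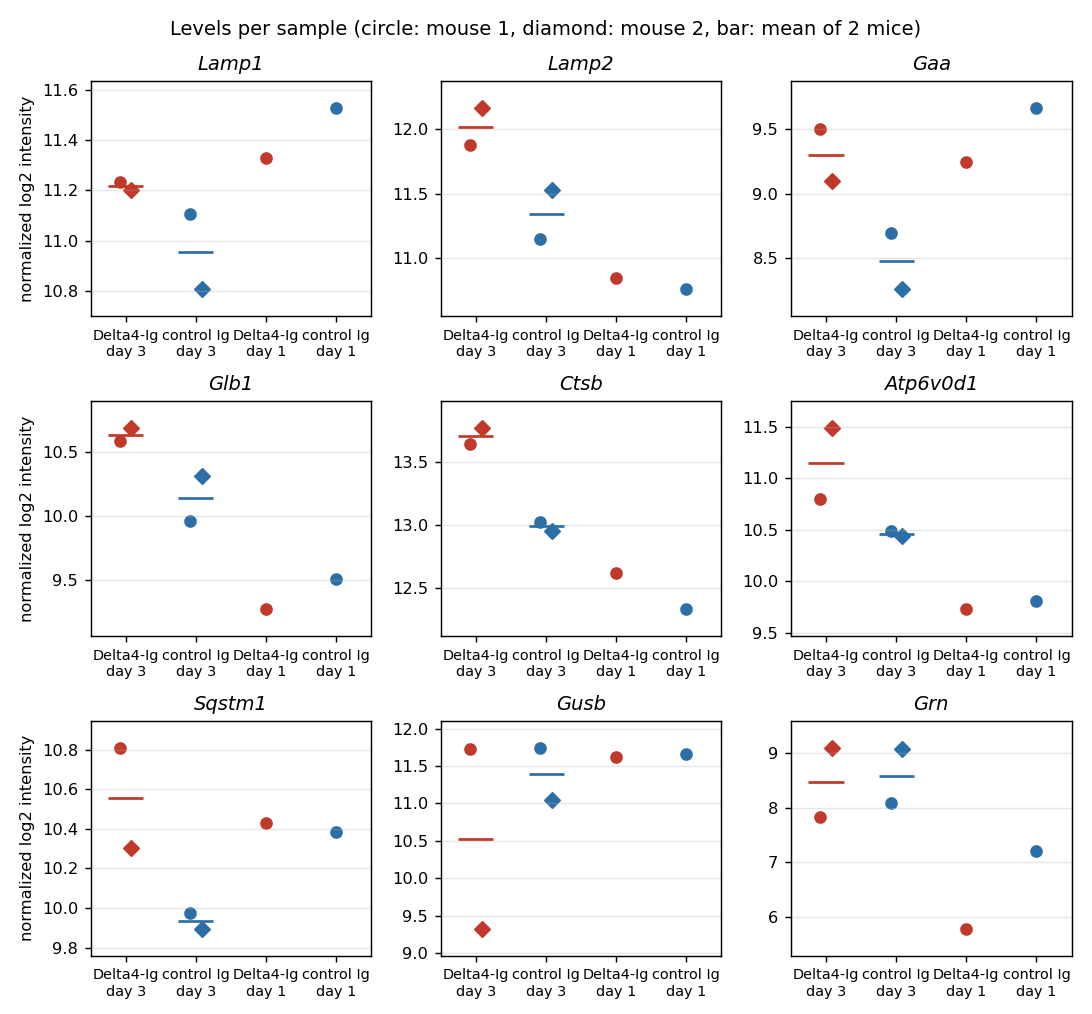
Normalized log2 intensity (y axis, a separate range for each gene) of 9 genes in each sample, with circles for mouse 1, diamonds for mouse 2 and bars for the mean of 2 mice. Lamp1, Lamp2, Gaa, Glb1, Ctsb, Atp6v0d1 and Sqstm1 do not overlap between the stimuli at day 3, Gusb is low in mouse 2 with Delta4-Ig (9.33), and Grn is lowest with Delta4-Ig at day 1 (5.79, not detected).

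Of the 9 genes with TCACGTG in the promoter, 8 were past the filter. At day 3, 6 of these 8 were higher with Delta4-Ig in both mice and 1, Atp6v1a, was lower. Of the 21 genes past the filter with a promoter but without the motif, 5 were higher in both mice and 3 were lower. Asah1, Atp6v1h, Becn1 and Ctsb passed the filter but had no promoter in RefSeq's table, so they stand in neither count. Each of them was higher with Delta4-Ig in both mice. Over all genes, 26.4% were higher and 32.4% lower in both mice. Mcoln1, 1 of the 6, lay at background at day 3 in all samples but that of mouse 2 with Delta4-Ig. The difference between these shares was not tested.

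Several genes had more than 1 probe past the filter, which gives another reading on the same arrays. Of 12 further probes of 6 genes, 12 had the same sign of the mean day 3 difference as the probe used. The 4 probes of Lamp2 gave differences of 0.68, 0.63, 0.93 and 1.52, each positive in both mice. The 4 probes of Atp6v0d1 gave 0.68, 0.59, 0.60 and 0.56. For Gusb, the 3 probes gave -1.72, -1.58 and -0.93 in mouse 2 and -0.01, 0.11 and -0.05 in mouse 1. The third probe was not detected in mouse 2 with Delta4-Ig, so its difference there is a bound, at least 1.30-fold lower with Delta4-Ig. The low level of Gusb in mouse 2 with Delta4-Ig was thus measured by 2 probes of 1 array. For Becn1, the further probe gave 0.02 in place of 0.32, with the signs of the mice opposed.

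**Figure D3:**
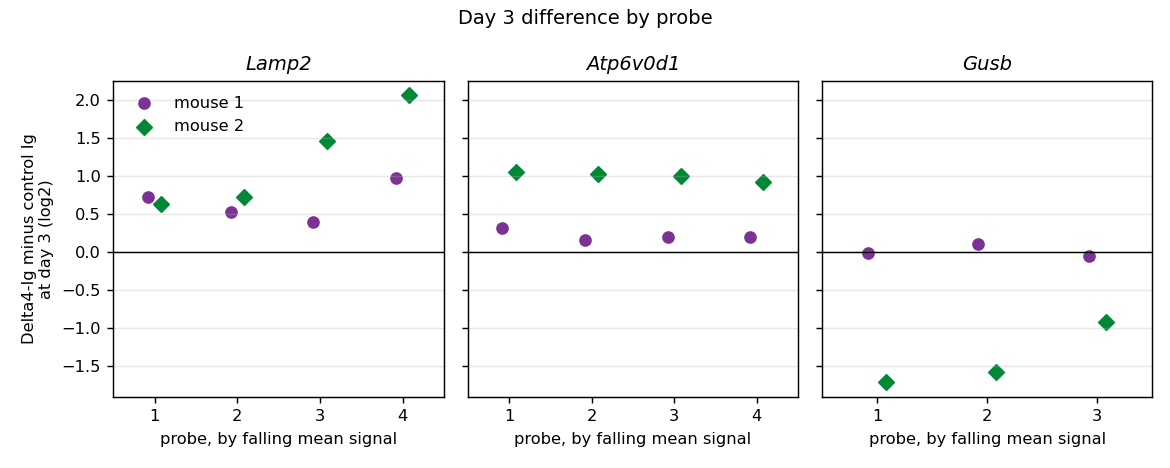
Difference between Delta4-Ig and control Ig at day 3 (log2, y axis) for each probe past the filter of Lamp2, Atp6v0d1 and Gusb, with circles for mouse 1 and diamonds for mouse 2. All points of Lamp2 and Atp6v0d1 are above 0, and the 3 points of mouse 2 for Gusb are at -0.93 or lower, the third of them from a probe not detected with Delta4-Ig in that mouse.

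At day 1, with 1 sample per stimulus and no test, the genes did not lie higher with Delta4-Ig. The median difference was -0.09, with 10 genes above 0 and 23 below, and that of all genes was -0.01. Counting genes detected in either sample, 48.5% of all genes were higher and 51.2% lower. No gene was at least 2-fold higher with Delta4-Ig, against 0.921% of all genes, and 1 was at least 2-fold lower, against 0.614%. That gene was Grn, whose product progranulin is processed in the lysosome and is known to support its function. Grn was not detected with Delta4-Ig and stood at a log2 level of 7.21 with control Ig, so it was at least 2.16-fold lower with Delta4-Ig. This bound takes the detection limit of the array, or the probe's own signal where that is brighter, as the level with Delta4-Ig. Among the other genes, the day 1 difference was -0.41 for Gaa, -0.20 for Lamp1, -0.24 for Glb1, 0.09 for Lamp2, 0.05 for Sqstm1, -0.27 for Map1lc3b, 0.16 for Ctsd, near background, and 0.29 for Ctsb.

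The stimulus effect at day 3 minus that at day 1 had a median of 0.44 over the 33 genes, with 26 above 0, against -0.04 over all genes, 46.6% of them above 0. It was above 0 in all 5 membrane proteins, all 5 autophagy genes and all 8 genes of lipid and protein breakdown past the filter, and in 1 of the 5 cathepsins. Since every one of these values contains the same 2 day 1 samples, the counts share their error. No gene passed the test of this change in limma, without or with the block, and 0.0% of all genes did in either direction. The smallest adjusted p in limma was 0.9998 without the block and 0.999 with it. At an unadjusted p under 0.05 in limma it was 0 of 33 without the block (0.64% of all genes) and 1 of 33, Grn, with it (3.64%). In 11 genes the difference was below 0 at day 1 and above 0 in both mice at day 3, as in 13.7% of all genes, or 33.3% of the 33.

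**Figure D4:**
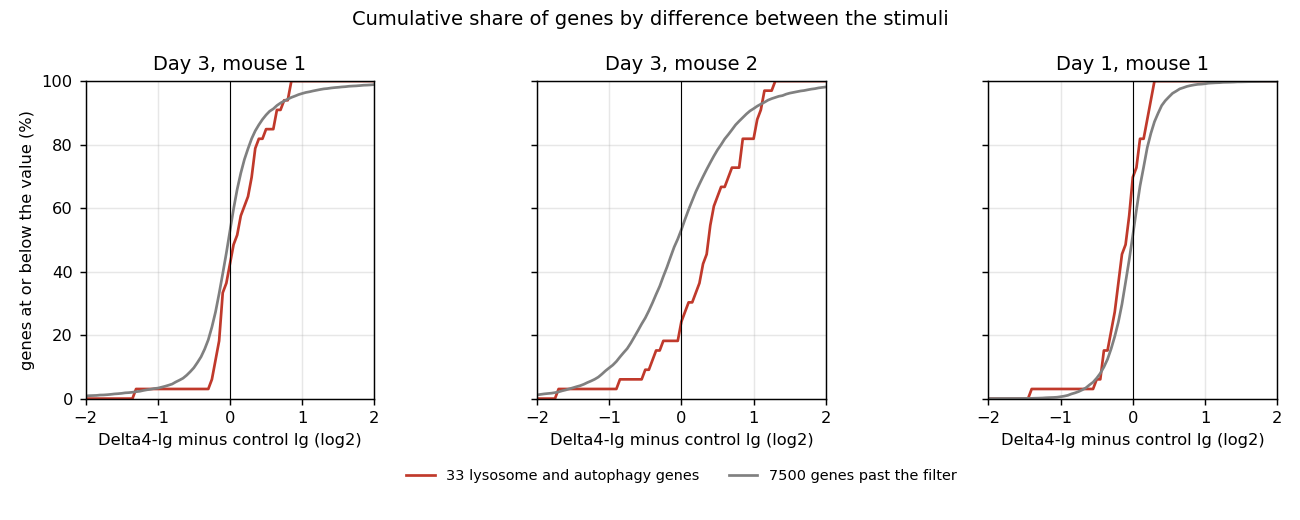
Cumulative share of genes (y axis, percent) by the difference between Delta4-Ig and control Ig (log2, x axis, shown from -2 to 2), at day 3 in mouse 1, at day 3 in mouse 2 and at day 1, for the 33 lysosome and autophagy genes and for all 7500 genes past the filter. The median of the 33 genes is 0.08, 0.38 and -0.09 in the 3 panels, against -0.02, -0.05 and -0.01 for all genes.

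Between day 3 and day 1, the test depended on the term for the mouse. Without it, 0 of 33 genes passed in limma, as did 0.0% of all genes in either direction, and the smallest adjusted p was 0.233, for Grn. With the mouse as a block, 1 gene, Grn, was called higher at day 3, against 5.24% of all genes, and 0 were called lower, against 2.85%. At an unadjusted p under 0.05 in limma, 7 of 33 were past without the block (14.2% of all genes) and 7 of 33 with it (23.8%). The median change of the 33 genes was 0.12 without the block and 0.06 with it, against -0.08 and -0.03 over all genes. Leaving out the day 3 sample of mouse 2 with Delta4-Ig put the median without the block at -0.02. Day 1 was measured in mouse 1 alone, so the change in mouse 2 is known only against mouse 1. The change fitted with the block is that of mouse 1, averaged over the stimuli. Its SE and p take their spread from day 3 and the prior, so no replicate of the change over time enters them.

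Grn rose with time in the fit with the block. Its log2 levels at day 3 were 7.84 and 9.10 with Delta4-Ig and 8.09 and 9.09 with control Ig, against 5.79 with Delta4-Ig (not detected) and 7.21 with control Ig at day 1. All 4 day 3 samples were above both day 1 samples, and in mouse 1 alone the change with control Ig was 0.88. The fitted change was 1.47 ± 0.31 (SE, limma adjusted p 0.0348) with the block, which is that of mouse 1 alone, and 2.03 ± 0.52 without it. With Delta4-Ig the day 3 level in mouse 1, the only animal measured on both days, was at least 3.34-fold that of day 1, a bound taken in the same way. The bound from the mean of both mice was 5.17-fold, which includes the higher level of mouse 2. Over the alternatives run, the fitted change of Grn lay between 0.73 (the block with no background correction) and 2.35 (without the Delta4-Ig sample of mouse 1). The call with the block was lost when the block was joined to no background correction (adjusted p 0.1225 in limma), to no detection filter (0.0995), to the first array of mouse 1 alone (0.0574) or to an offset of 50 (0.0555). It held with 75th percentile scaling (0.0105) and with the deposited value table (0.0340).

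The other genes with the largest changes shared by both stimuli and both mice did not pass the test, and the values follow as a description. In 12 genes (36.4%) all 4 day 3 samples were above the day 1 sample of the same stimulus, against 21.5% of all genes, and in 4 (12.1%) below, against 26.9%. The 12 were Asah1, Atp6ap1, Atp6v0d1, Atp6v1a, Ctsb, Ctsz, Gabarapl1, Glb1, Grn, Lamp2, Laptm5 and Npc2, and the 4 were Atp6v1h, Lamp1, Neu1 and Ppt1. Asah1 had 9.66 with Delta4-Ig and 9.74 with control Ig at day 1, below its 4 day 3 levels of 10.52 to 11.29, a change of 1.18 ± 0.34 (SE). Npc2 changed by 1.18 ± 0.49 (SE), with 10.79 with Delta4-Ig and 11.03 with control Ig at day 1. Its day 3 level was high in mouse 2 under both stimuli. Gabarapl1, an autophagosome protein of the Map1lc3b family, had 9.48 and 9.66 with Delta4-Ig and 9.60 and 9.24 with control Ig at day 3, against 8.37 with Delta4-Ig and 8.69 with control Ig at day 1.

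The genes without overlap between the stimuli at day 3 did not share 1 course over time. Ctsb had 12.62 with Delta4-Ig and 12.33 with control Ig at day 1, below every day 3 sample, and its change was 1.02 (Delta4-Ig) and 0.69 (control Ig) in mouse 1. Glb1 had 9.27 with Delta4-Ig and 9.51 with control Ig at day 1, Lamp2 had 10.85 and 10.76, and Atp6v0d1 had 9.73 and 9.81, and these too were below every day 3 sample. Ctsz, at 9.04 with Delta4-Ig and 8.89 with control Ig at day 1, was likewise below every day 3 sample. Gaa behaved otherwise: at day 1 it had 9.25 with Delta4-Ig and 9.66 with control Ig, and in mouse 1 it changed by 0.25 with Delta4-Ig and by -0.97 with control Ig. Sqstm1, at 10.43 with Delta4-Ig and 10.38 with control Ig at day 1, changed in mouse 1 by 0.38 with Delta4-Ig and by -0.41 with control Ig. Atp6v1h, at 11.70 with Delta4-Ig and 11.73 with control Ig at day 1, and Lamp1, at 11.33 and 11.53, were above every day 3 sample. Gusb, at 11.62 with Delta4-Ig and 11.66 with control Ig at day 1, changed by -0.68 without the block and by 0.10 with it. Map1lc3b had 8.60 with Delta4-Ig and 8.87 with control Ig at day 1, and Ctsd 6.18 and, not detected, 6.02. Over the 33 genes in mouse 1, the median change was 0.18 (Delta4-Ig) and -0.03 (control Ig), against -0.03 over all genes with either stimulus.

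**Figure D5:**
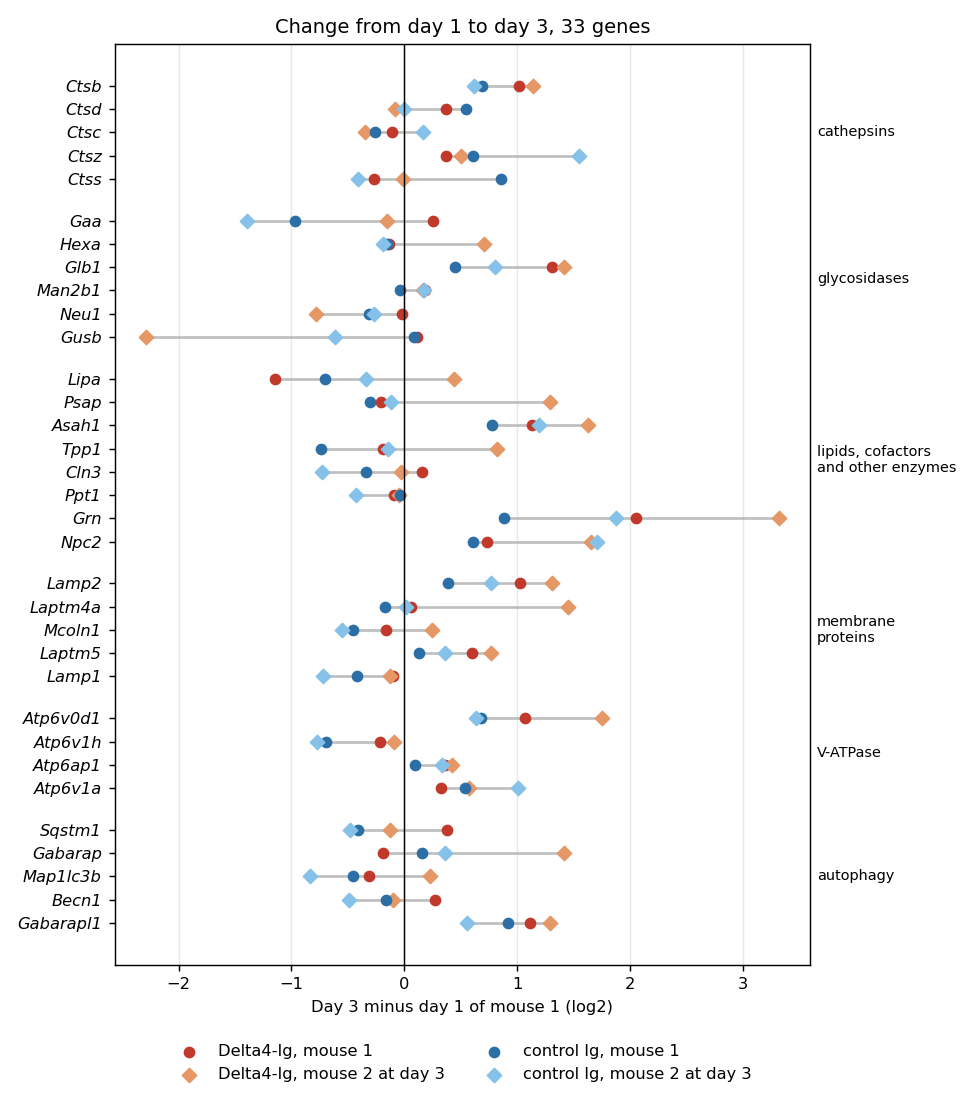
Day 3 level minus the day 1 level of mouse 1 under the same stimulus (log2, x axis) for the 33 genes, grouped by role, in red and orange for Delta4-Ig and in dark and light blue for control Ig. All 4 points lie right of 0 in 12 genes and left of 0 in 4, and Grn reaches 3.32 with Delta4-Ig in mouse 2, measured against a day 1 level at background.

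The median gap between mouse 2 and mouse 1 over the 33 genes, whatever its sign, was 0.40 (Delta4-Ig) and 0.36 (control Ig). Between the 2 arrays of mouse 1 it was 0.19 (Delta4-Ig) and 0.11 (control Ig), and the largest were 0.74 for Lipa with Delta4-Ig and 0.50 for Grn with control Ig. Mouse 2 was higher than mouse 1 under both stimuli in 14 genes (42.4%, against 34.0% of all genes) and lower under both in 7 (21.2%, against 38.9%). The median of mouse 2 minus mouse 1 was 0.17 (Delta4-Ig) and 0.04 (control Ig). The 2 differences correlated across the 33 genes at r = 0.474, against 0.592 across all 7500, again a description over genes of the same arrays.

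Beyond the 41 genes, 154 other genes of the same systems were listed, of which 137 had a probe and 105 passed the filter. At day 3, 0 of 105 passed the test between the stimuli in limma without or with the block, and their median difference was 0.08. Other autophagy genes (24 past the filter) had a median of 0.23, other lysosomal enzymes (17) 0.28, other lysosomal membrane proteins (15) 0.10, enzyme sorting genes (24) 0.04, other V-ATPase subunits (12) 0.00 and the TFEB family and its partners (13) -0.04. Between day 3 and day 1, 0 passed without the block, while with it 1 was called higher and 2 lower. Rragd, a Rag GTPase that helps recruit mTORC1 to the lysosome, had log2 levels of 8.04 and 7.86 with Delta4-Ig and 6.78 and 6.29 with control Ig at day 3, and was not detected in either day 1 sample. It rose by 2.14 ± 0.31 (SE) over time with the block (limma adjusted p 0.0105). In mouse 1 the rise was at least 3.83-fold with Delta4-Ig and at least 1.46-fold with control Ig. From the mean of both mice at day 3, Rragd rose at least 3.59-fold with Delta4-Ig and at least 1.23-fold with control Ig. Its day 3 difference between the stimuli, 1.42 ± 0.31 (SE) with the block and above 0 in both mice, did not pass (limma adjusted p 0.130). Ctse, an aspartic protease, was called lower with the block (limma adjusted p 0.00373). Like every change over time fitted with the block, those of Rragd and Tpcn2 included, this rests on mouse 1. Ctse had 4.92 with Delta4-Ig and 5.10 with control Ig in mouse 1 at day 3, against 8.23 and 8.52 at day 1, while mouse 2 had 8.85 and 7.96 at day 3. Both day 3 levels of mouse 1 were not above background, so the difference there is a bound, at least 4.04-fold lower at day 3 with Delta4-Ig and at least 4.52-fold lower with control Ig. Tpcn2, a channel of the lysosomal membrane, was called lower with the block (-1.49 ± 0.31 SE, limma adjusted p 0.0328). Its day 3 levels were 6.34 and 7.30 with Delta4-Ig and 6.24 and 7.43 with control Ig, against 7.68 with Delta4-Ig and 7.89 with control Ig at day 1, and it was not detected with control Ig in mouse 1 at day 3.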

How the data were processed

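Expression was measured on 8 arrays. The authors deposited a non-normalized table with an intensity on a linear scale and the probes' detection p-values, and a table of processed log2 values whose scale is not stated. Per the submitters' processing notes, GenomeStudio and limma were used, with no version given. The deposited log2 table differed from the values computed here by at most 0.0417, so it was read as background-corrected and quantile-normalized.

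The intensities were background-corrected with an offset of 16 and quantile-normalized as in neqc of limma 3.58.1 (R 4.3.3), which infers the background from the detection p-values. Of 25697 probes, 10744 had a detection p-value under 0.01 on at least 2 arrays and were tested. The annotation named 23978 probes with 1 symbol, 0 with several, and left 1719 unnamed. Arrays of 1 mouse were averaged. One linear model of the 4 groups was fitted (2 residual degrees of freedom, all from day 3), with Benjamini-Hochberg adjustment over all tested probes. A second fit had the mouse as a block (1 residual and 6.08 prior degrees of freedom). In it, a change over time is that of mouse 1 alone, since day 1 holds no other mouse. Per the labels, a shared number marks a shared mouse, and the samples were paired on that ground. Mouse 2 minus mouse 1 correlated at r = 0.607 between the stimuli, which by itself cannot show that a number marks 1 animal. The fits were tested on simulated data.

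Between 8940 and 10543 probes were detected per array, and the small number of arrays limits the precision. Technical arrays differed with an SD of 0.285 with Delta4-Ig and 0.284 with control Ig, and the mice with an SD of 1.06 with Delta4-Ig and 0.746 with control Ig.

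The genes and lists were chosen with earlier results of these data known. Named with values were genes past the threshold in either fit, the 10 with the largest difference of the same sign in both mice (for time, in both stimuli), those at least 2-fold apart at day 1, and always Tfeb, Sqstm1, Map1lc3b, Lamp1 and Ctsd. Other genes are given by count and range, or by their mean difference. Alternatives were the deposited table, no background correction, an offset of 50, 75th percentile scaling, other detection filters, the first array of mouse 1, the mean of a gene's probes and leaving out each sample.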

Additional observations from a re-analysis of the deposited data

How the results depend on the processing

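With all samples kept, no gene of the 33 passed the day 3 test between the stimuli under any alternative run. The test of the change of that effect was counted only for the alternatives planned beforehand, and no gene passed it in those. The median day 3 difference stayed between 0.09 (without the Delta4-Ig sample of mouse 2) and 0.37 (without that of mouse 1). The number of genes called between day 3 and day 1 was 0, but it was 1 (Grn, 1.47) with the mouse as a replicate block, 1 (Grn, 1.47) with the block on the deposited table and 1 (Grn, 1.48) with the block and 75th percentile scaling, the last added after the data were seen. The median change over time (0.12) ran from -0.02 to 0.19 when each day 3 sample was left out in turn. Gusb over time (-0.68) was 0.10 with the block and 0.10 with the block on the deposited table. Gusb between the stimuli (-0.86) ran from -2.07 to 0.34 with a sample left out, and only without the Delta4-Ig sample of mouse 2 was it above 0. The block changed no other call of the named genes. For the named genes, 199 other values kept their direction and their side of the threshold, as did 79 with a sample left out. With 1 sample per stimulus, day 1 has no error, and genes near background have only bounds.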
